A study of Mus musculus with 3 samples.

Results

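Organic ion transporters of the Slc22 family were measured in mouse kidney: *Slc22a6*, *Slc22a7*, *Slc22a8*, *Slc22a12*, *Slc22a13* and *Slc22a19*, which carry organic anions, and *Slc22a2*, *Slc22a4* and *Slc22a5*, which carry organic cations or carnitine. They comprised every probe set whose platform annotation gave 1 of these 9 symbols and no other, which was 13 of the 45101 probe sets on the array, 9 for anion carriers and 4 for cation and carnitine carriers. The RNA came from the remaining kidney of male C57BL/6J mice aged 16 weeks, taken 6 weeks after removal of the other kidney. 1 sample had uninephrectomy alone. 2 samples came from the cardio-renal syndrome model: a band narrowed the abdominal aorta below the origin of both renal arteries, and a kidney was removed 2 weeks later. All 3 samples therefore lacked a kidney, and neither a mouse with both kidneys nor a mouse with banding alone was analysed here. The series' design text mentions sham operations without tying them to a sample. The labels do not say whether a sample is 1 mouse or a pool, and the spread between the pair of cardio-renal samples may be technical.

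Transporters of this family clear drugs, toxins and metabolites in the proximal tubule. On the blood side, organic anion transporters take up anions in exchange for dicarboxylates, which the tubule cell gathers through a sodium-dependent carrier, and organic cation transporters take up cations down the electrical gradient. On the urine side, relatives in the same family reabsorb urate, nicotinate and carnitine, and other pumps release what was taken up. In rodents, several of the family's genes are known to differ between males and females.

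Several of the genes neighbour each other or other family members. In RefSeq's annotation of GRCm38.p6, *Slc22a8* and *Slc22a6* are adjacent coding genes on chromosome 19, separated by 6160 bases, and *Slc22a19* lies next to its relative *Slc22a26* on the same chromosome. On chromosome 11, *Slc22a21* is the only coding gene between *Slc22a5* and *Slc22a4*. The neighbours *Slc22a8* and *Slc22a6* are shown because their signals lay on opposite sides of the uninephrectomy array in cardio-renal array 1, and *Slc22a19* because its log2 difference from that array was among the most negative there. Each sequence is the 250 bases before the gene's start, read 5′ to 3′ on the gene's own strand, from RefSeq with build GRCm38.p6. Capitals mark the letters GTTAAT, a partial site of the HNF1 factors of the proximal tubule, or AGAACA, a partial site of the androgen and glucocorticoid receptors, or the reverse complement of either.
Slc22a8: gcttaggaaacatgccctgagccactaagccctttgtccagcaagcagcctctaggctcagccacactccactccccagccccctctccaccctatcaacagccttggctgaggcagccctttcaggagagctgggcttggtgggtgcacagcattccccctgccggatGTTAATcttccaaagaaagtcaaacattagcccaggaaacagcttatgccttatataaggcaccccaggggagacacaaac
Slc22a6: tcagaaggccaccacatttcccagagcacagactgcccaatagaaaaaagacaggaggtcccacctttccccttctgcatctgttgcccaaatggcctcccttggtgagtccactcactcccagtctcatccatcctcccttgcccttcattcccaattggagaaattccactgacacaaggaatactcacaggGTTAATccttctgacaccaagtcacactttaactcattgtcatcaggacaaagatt
Slc22a19: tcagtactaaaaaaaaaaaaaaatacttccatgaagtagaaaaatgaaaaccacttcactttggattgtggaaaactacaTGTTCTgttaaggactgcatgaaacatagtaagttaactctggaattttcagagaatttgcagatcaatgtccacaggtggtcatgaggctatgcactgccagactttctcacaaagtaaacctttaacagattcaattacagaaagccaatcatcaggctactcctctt
The *Slc22a8* sequence is chr19:8592932-8593181 on the plus strand, that of *Slc22a6* is chr19:8617746-8617995 on the plus strand, and that of *Slc22a19* is chr19:7711311-7711560 on the minus strand. The GTTAAT match of *Slc22a8* begins at position -81 and that of *Slc22a6* at -56, counted from the base before the start as -1, and the TGTTCT match of *Slc22a19* begins at -170. Of the 9 members, 8 had a promoter in the table and *Slc22a7* had none. GTTAAT on either strand was in 2 of these 8 windows, those printed for *Slc22a8* and *Slc22a6*, and in 6.43% of all 32851 promoter windows of that length. AGAACA on either strand was in 1 of the 8, that of *Slc22a19*, and in 16.1% of all windows. No capital stretch overlapped another, and a match is only a match of letters. The carnitine carrier windows differed in composition from the rest: G and C made up 73.6% of the bases of *Slc22a5* and 71.2% of those of *Slc22a4*, with 30 and 26 CG pairs, against 35.6% to 55.2% and 0 to 6 CG pairs in the other 6 windows.

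Deposited values were MAS5 signals, a brightness per probe set on a linear scale that is not comparable between probe sets. The median signal was 100.1 on the uninephrectomy array and 105.9 and 102 on cardio-renal arrays 1 and 2. All 13 member probe sets passed the filter on dim probe sets. Differences are given as log2(signal + 28.8) of a cardio-renal array minus that of the uninephrectomy array, and the SD is over the 2 cardio-renal arrays. Both differences use the same single control, the uninephrectomy array, so a shared sign can come from that array. Proximal tubule markers were bright on every array: 16 of 17 listed genes were measured, all 16 were kept, and their summed signals were 223196, 201043 and 234686 on the uninephrectomy array and cardio-renal arrays 1 and 2. In whole kidney RNA, fewer cells of a type and less RNA per cell cannot be told apart.

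No member passed a test for a difference between the groups, and in cardio-renal array 1 the anion carriers *Slc22a7* and *Slc22a19* lay far below both other arrays. In limma's fit over 22519 kept probe sets, 0 of the 13 member probe sets passed Benjamini-Hochberg adjustment in either direction, against 0.0% of all kept probe sets called higher and 0.0% called lower; every member had an adjusted p of 0.9998. At an unadjusted p under 0.05, 2 member probe sets were counted, for *Slc22a19* and the dimmer one for *Slc22a8*, against 2.78% of kept probe sets. In both cardio-renal arrays, 0 of the 13 lay lower by 2-fold or more, as did 0.0533% of kept probe sets, and 0 lay higher by 2-fold or more, as did 0.142%. In array 1 alone, 2 of the 13, those of *Slc22a7* and *Slc22a19*, were at least 2-fold lower, against 0.528% of kept probe sets, and 0 were at least 2-fold higher, against 0.488%. A permutation test on 1 array against 2 cannot go below an exact p of 0.333.

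**Figure D1:**
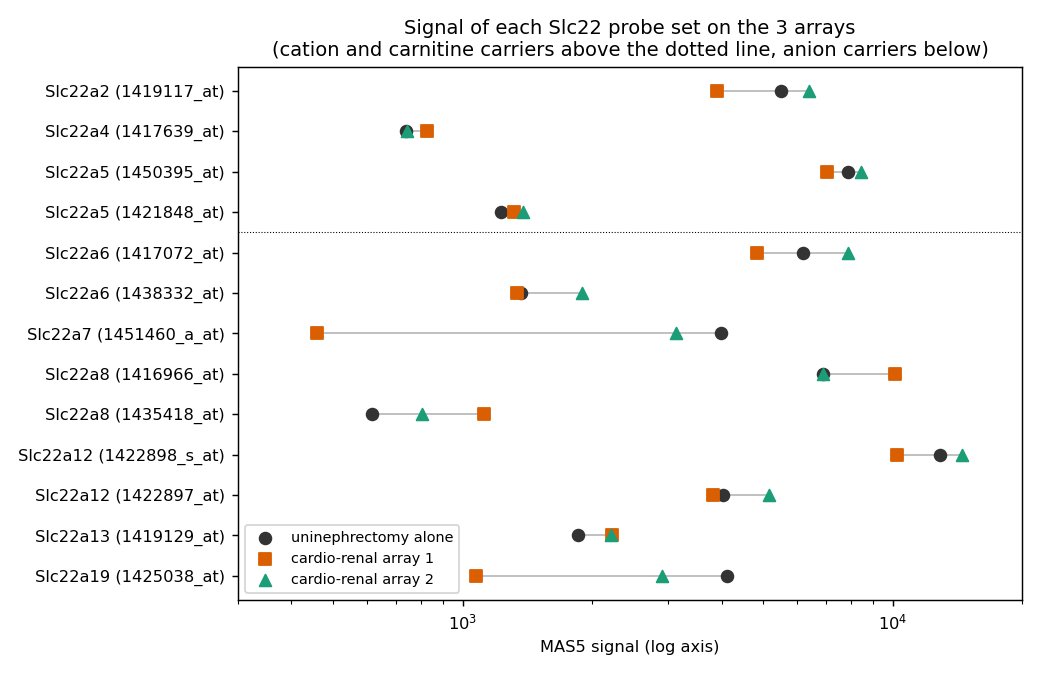
MAS5 signal (log axis) of each of the 13 Slc22 probe sets on the uninephrectomy array (circles) and on cardio-renal arrays 1 (squares) and 2 (triangles); a grey line joins the lowest and highest array. *Slc22a7* spans 459.6 to 3985 and *Slc22a19* 1073 to 4119, both with array 1 lowest, whereas array 1 is the highest for both *Slc22a8* probe sets.

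*Slc22a7* encodes the organic anion transporter OAT2, also abundant in liver. Its signal was 3985 on the uninephrectomy array, 459.6 in cardio-renal array 1 and 3124 in array 2. Array 1 was 8.67-fold below the uninephrectomy array and 6.80-fold below the other cardio-renal array, whereas array 2 was 1.28-fold below the uninephrectomy array. Both cardio-renal values lay below the lone control. The log2 differences were -3.04 and -0.35, a mean of -1.69 ± 1.90 (SD, n = 2), and limma gave a standard error of 0.83. Only 5 of the kept probe sets lay lower than that of *Slc22a7* in array 1, while 1768 lay lower in array 2. Its single probe set carries the suffix _a_at, a design that may match several transcripts of the gene, and no other probe set gave a second reading.

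*Slc22a19* encodes OAT5, an anion transporter of steroid sulfates on the urine side of the proximal tubule. Its signal was 4119 on the control array, 1073 in array 1 and 2908 in array 2. The control was thus the highest of the 3, with array 1 lower by 3.84-fold and array 2 by 1.42-fold. The log2 differences were -1.91 and -0.50, a mean of -1.21 ± 1.0 (SD, n = 2), with a limma standard error of 0.46. Its unadjusted p was 0.0291 and its limma adjusted p 0.9998. In array 1, 24 kept probe sets lay lower, and in array 2, 730 did. *Slc22a7* and *Slc22a19* were also the members at least 2-fold apart between those arrays, 2 of 9, against 0.996% of all kept genes. Only 9 kept probe sets were further apart between those arrays than that of *Slc22a7*, and 76 than that of *Slc22a19*.

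*Slc22a6* and *Slc22a8* encode OAT1 and OAT3, the main anion uptake carriers of the blood side. The brighter *Slc22a6* probe set had signals of 6196 on the control array, 4823 in array 1 and 7866 in array 2. Array 1 was below the control and array 2 above it, so the cardio-renal pair enclosed the control, at log2 differences of -0.36 and 0.34. The other *Slc22a6* probe set had signals of 1367, 1340.4 and 1891, with differences of -0.03 and 0.46. The 2 probe sets shared the order of the arrays, and their means of -0.01 ± 0.50 and 0.22 ± 0.34 (SD, n = 2) differed in sign.

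For *Slc22a8*, array 1 lay highest rather than lowest. The brighter probe set had a signal of 6887 on the control array, 10128.9 in array 1 and 6878 in array 2. Array 1 lay 1.47-fold above the control, and array 2 was level with it, at a log2 difference of -0.002 that turned to 0.028 with each array scaled to a common 75th percentile and was -0.034 after quantile normalization. The dimmer probe set had signals of 614.2, 1118 and 802.6, so both cardio-renal arrays lay above the control, at log2 differences of 0.83 and 0.37. Its mean difference of 0.60 ± 0.33 (SD, n = 2) had an unadjusted p of 0.0277 and a limma adjusted p of 0.9998. Both probe sets placed array 1 highest, and they disagreed on array 2. Of the kept probe sets, 804 lay higher in array 1 than the brighter one and 214 higher than the dimmer one.

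*Slc22a12* encodes URAT1, which reabsorbs urate from the tubular fluid. Its brighter probe set had signals of 12869.5 on the control array, 10236 in array 1 and 14468 in array 2. The other had 4035, 3817 and 5156. Both showed array 1 lowest and array 2 highest. Their log2 differences were -0.33 and 0.17 for the brighter and -0.08 and 0.35 for the other, and the means of -0.08 ± 0.35 and 0.14 ± 0.30 (SD, n = 2) had opposite signs. The brighter one carries the suffix _s_at, a design whose probes may match more than 1 transcript.

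*Slc22a13* encodes OAT10, an exchanger of urate and nicotinate. It had signals of 1858 on the control array, 2228 in array 1 and 2210.2 in array 2. The cardio-renal arrays nearly coincided and both lay above the control, by 1.20-fold and 1.19-fold. The mean log2 difference was 0.25 ± 0.01 (SD, n = 2), the narrowest pair among the members, with a limma standard error of 0.16 and an adjusted p of 0.9998. In array 1, 4017 kept probe sets lay higher than it, and in array 2, 2698 did.

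*Slc22a2* encodes OCT2, the organic cation uptake carrier of the blood side. Its signal was 5504 on the control array, 3894 in array 1 and 6379 in array 2. The pair enclosed the control, with array 1 lower by 1.41-fold and array 2 higher by 1.16-fold, and the mean log2 difference was -0.14 ± 0.50 (SD, n = 2). *Slc22a6*, *Slc22a12* and the brighter *Slc22a5* probe set shared this order of the arrays.

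The carnitine and ergothioneine carriers differed from the control by -0.16 to 0.15 on the log2 scale over both arrays with the probe set of highest mean signal. *Slc22a5*, which encodes the high-affinity carnitine transporter OCTN2, had signals of 7859, 7011 and 8431 on the uninephrectomy array, array 1 and array 2 with its brighter probe set. The other had 1230.3, 1319 and 1379.5. The log2 differences of the brighter were -0.16 and 0.10 and those of the other 0.10 and 0.16, so the 2 probe sets disagreed on the side of array 1. *Slc22a4*, which encodes the ergothioneine transporter OCTN1, had signals of 738.2, 824.1 and 741.5. Array 2 was level with the control at 0.006 and array 1 lay 0.15 higher. For *Slc22a4*, 12641 of the kept probe sets were further apart between the cardio-renal arrays, and for the brighter *Slc22a5* probe set 7132 were.

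**Figure D2:**
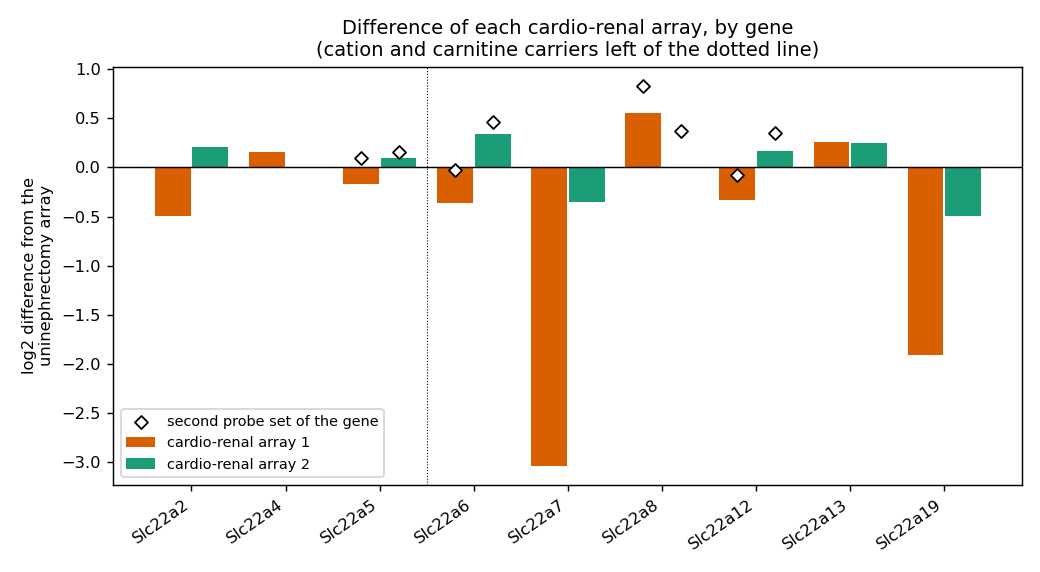
Log2 difference of cardio-renal array 1 and array 2 from the uninephrectomy array (y axis) for each Slc22 gene (x axis); bars are the probe set with the highest mean signal and diamonds the gene's second probe set. *Slc22a7* (-3.04 and -0.35) and *Slc22a19* (-1.91 and -0.50) reach furthest, and the bars of *Slc22a2*, *Slc22a5*, *Slc22a6* and *Slc22a12* point down for array 1 and up for array 2.

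Anion carriers were compared with cation and carnitine carriers with 1 probe set per gene, the one with the highest mean signal, and no test was made between these sets of 6 and 3 genes. In array 1 the median log2 difference was -0.34 for anion carriers and -0.16 for cation and carnitine carriers, against 0.008 for all 11146 kept genes. In array 2 the medians were 0.08 and 0.10, against -0.003 for all kept genes. The medians of the 2 classes were thus on the same side in each array. Anion carriers ranged from -3.04 to 0.55 in array 1, and cation and carnitine carriers from -0.50 to 0.15; without *Slc22a7* and *Slc22a19* the other 4 anion carriers ranged from -0.36 to 0.55. In array 2 the ranges were -0.50 to 0.34 and 0.006 to 0.21. The mean over both arrays had a median of -0.04 for anion carriers and -0.03 for the others. Both medians lay near 0, and their sign turned, to 0.07 and 0.05, with the mean of each gene's probe sets, and that of anion carriers also, to 0.14, without probe sets that may share sequence.

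Of the 9 genes, 2 (*Slc22a4* and *Slc22a13*) lay above the control in both cardio-renal arrays, where 30.6% of all kept genes did, and 2 (*Slc22a7* and *Slc22a19*) lay below it in both, where 29.8% did. 5 had opposite signs in the 2 arrays, against 39.6%. With array 2 alone, 6 genes were above the control and 3 below, against 49.3% and 50.7% of kept genes. With array 1 alone 3 were above and 6 below, against 51.6% and 48.4%. The commonest order, array 1 below and array 2 above the control, was shown by *Slc22a2*, *Slc22a5*, *Slc22a6* and *Slc22a12*, 4 of 9, against 18.6% of kept genes; with the mean of a gene's probe sets in place of the brighter one, these 4 kept that order. Array 1 was the lowest of the 3 arrays for 6 of the 9 genes, against 34.4% of kept genes, and the highest for the other 3, against 39.1%. The lowest 6 comprised 4 anion carriers, *Slc22a2* and *Slc22a5*. Proximal tubule markers leaned the same way: of 16 kept, 12 lay below the control in array 1 and 11 above it in array 2, counted separately. Of these markers, 9 had opposite signs in the 2 arrays. A lean to lower values in array 1 and higher ones in array 2 was thus not particular to these carriers.

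**Figure D3:**
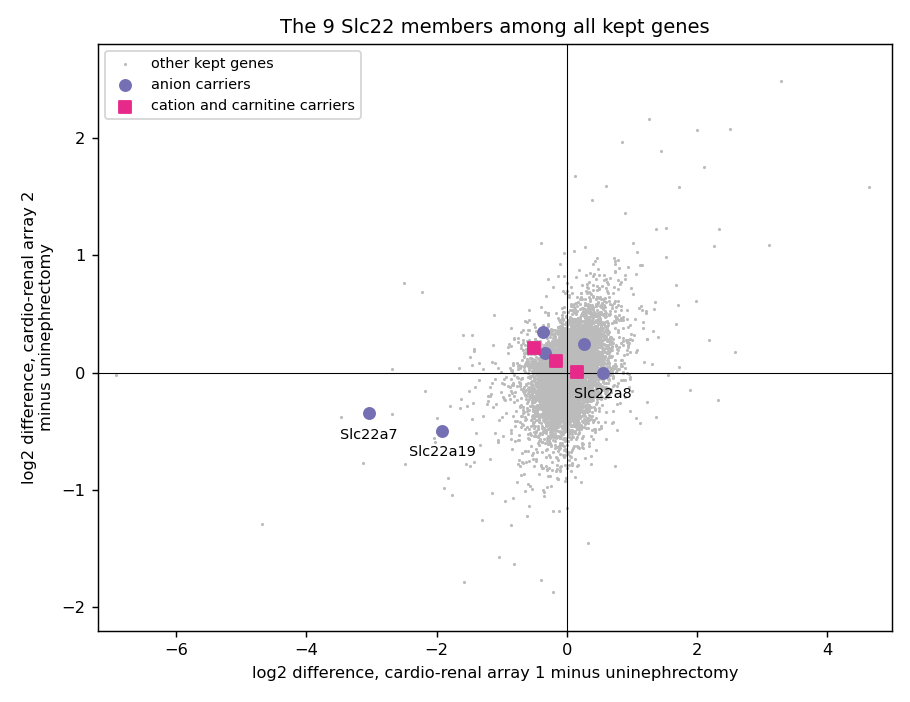
Log2 difference from the uninephrectomy array in cardio-renal array 1 (x axis) and array 2 (y axis) for all 11146 kept genes (grey), anion carriers (circles) and cation and carnitine carriers (squares). *Slc22a7* and *Slc22a19* lie far left of the main body of genes, with the other 7 members between -0.50 and 0.55 in array 1.

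The genes closest to *Slc22a7* and *Slc22a19* were ranked by the distance between points made of the array 1 and array 2 differences, over 10758 kept genes and only 3 arrays. Nearest to *Slc22a7* were *Cyp7b1*, an oxysterol hydroxylase, at a distance of 0.35, then *Kif20b* at 0.43 and *Ces1g* at 0.43. *Cyp7b1* had signals of 13093.7 on the control array, 2003 in array 1 and 10266 in array 2. Nearest to *Slc22a19* were *Apcs*, at 0.07, and *Tc2n* and *Mfsd2a*, both at 0.14. These were dimmer genes: *Apcs* had signals of 298.5, 53.8 and 202.1.

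The low values of *Slc22a7* and *Slc22a19* in array 1 occurred beside a shift of genes that differ between male and female mouse kidneys. The male- and female-biased lists were chosen with earlier results of these data known. Neither *Slc22a7* nor *Slc22a19* was on them, and the direction of any sex difference in these genes was not examined. Of 13 listed male-biased genes 12 were measured and kept. In array 1 all 12 lay below the control, against 48.4% of all kept genes, with a median log2 difference of -0.83. There 5 were lower by 2-fold or more, against 0.528% of kept probe sets. In array 2, 4 of the 12 lay below the control and the median was 0.03. Their summed signals were 159691, 91207 and 165561 on the uninephrectomy array, array 1 and array 2. *Slco1a1*, an androgen-dependent anion carrier, stood at -6.92 and -0.02, *Cyp7b1* at -2.69 and -0.35 and *Gusb*, a lysosomal glucuronidase, at -0.44 and -0.18. The 3 kept of 4 female-biased genes were higher in both arrays, with medians of 1.72 and 0.38 and summed signals over all 4 of 4827, 17961 and 6256. The part of this shift in the values of the Slc22 genes was not tested.

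Markers of other tissues were given beside the same arrays. *Slc22a7* is also a liver gene: of 9 measured hepatocyte markers 5 were kept, 1 higher and 2 lower in both cardio-renal arrays. The summed signals of the 9 were 15109, 14967 and 15896, mostly from *Ttr*, at 13426, 12522 and 14321. Those sums therefore say little about the other markers. *Alb* had signals of 216.9, 775.3 and 337.9. All 8 heart markers, of which 4 passed the filter, were higher in both arrays, and *Myh6*, the alpha cardiac myosin heavy chain, stood at 3.29 and 2.49; the summed signals of the 8 were 324.1, 2154 and 1626. Macrophage markers had 2 of 7 higher and 5 lower in both, with medians of -0.09 and -0.14. Adipocyte (2 kept) and podocyte (4 kept) markers had 1 each higher in both and 0 lower, 0 of 5 adrenal cortex markers was kept, each of the 2 thick ascending limb markers was lower in array 1 and higher in array 2, and the 3 collecting duct markers were lower in both. No marker of any list was at a signal of 0. Of the 16 proximal tubule markers, 3 were higher and 4 lower in both arrays, and the median was -0.14 for array 1 and 0.06 for array 2. Their widest difference in array 1 was -0.36, for *Hnf4a*, a transcription factor of the tubule and liver, against -3.04 for *Slc22a7*. None of these markers passed limma's adjusted p, and their part in the Slc22 values was not tested.

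The rest of the family was measured by 12 further genes, of which 7 were kept; 2 were higher and 1 lower in both cardio-renal arrays, with medians of -0.09 and 0.06, and 0 passed limma's adjusted p. *Slc22a17*, a lipocalin receptor, stood at 0.49 and 0.17, *Slc22a23* at 0.20 and 0.02 and *Slc22a26* at -0.79 and -0.16. The second *Slc22a26* probe set stood at -1.04 and -0.22, and this gene is the coding neighbour of *Slc22a19*. Chosen after their values were seen, *Slc22a30* and *Slc22a29* of the same cluster lay on opposite sides of the control in array 1. *Slc22a30* had signals of 10151.5 on the control array, 6205 in array 1 and 10553.5 in array 2. *Slc22a29* had signals of 498.8, 1329.6 and 377.3, from an _x_at probe set that may cross-hybridise, and a further probe set annotated to both genes had 721.2, 1493 and 676.2. Close copies in this cluster cannot be told apart with certainty.

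Among the transporters and regulators that work with these carriers, 19 of 23 were measured and 18 kept. 9 were higher and 2 lower in both cardio-renal arrays, and the median was 0.19 for array 1 and 0.07 for array 2. 0 passed limma's adjusted p. *Abcb1b*, a drug efflux pump of the P-glycoprotein type, was dim on the uninephrectomy array at a signal of 67.3 and had 796.3 in array 1 and 175.7 in array 2, with log2 differences of 3.10 and 1.09. *Abcc4*, the urine-side pump that releases anions taken up by OAT1 and OAT3 and also 1 of the female-biased genes, had 1491, 4986 and 1543. *Slc13a2*, a urine-side dicarboxylate carrier, stood at 1.04 and 0.46. These 3 were named by a rule that took only genes on the same side of the control in both arrays. Their shared side was therefore set by selection, and in array 2 *Abcc4* was nearly level with the control, at 0.05. Of the 18 kept, 10 were higher and 8 lower in array 1, and 7 had opposite signs in the arrays.

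Partners chosen after their values were seen included carriers of dicarboxylate supply and of exit. *Slc13a3*, the blood-side dicarboxylate carrier that supplies the anion exchangers, had signals of 9367, 13082 and 10408. *Slc47a1*, the cation exporter that works in series with OCT2, had 13537.5, 11356 and 15025 and so the same order of the arrays as *Slc22a2*. *Slc17a3*, a urine-side phosphate and urate transporter, had 15019.6, 8908 and 15618, with array 1 below both others. *Slc13a3* had array 1 highest, as *Slc22a8* did, while *Slc47a1* and *Slc17a3* had it lowest, as *Slc22a6* and *Slc22a12* did. Such matches carry no weight after that choice, and array 1 was highest for 39.1% and lowest for 34.4% of all kept genes.

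Genes that use or make carnitine, the cargo of OCTN2, numbered 8 measured of 9 listed and 7 kept. All 7 were lower in array 1, with a median of -0.17, and 6 of 7 were higher in array 2, with a median of 0.06, and *Cpt1a*, the gatekeeper enzyme of mitochondrial fatty acid import, was the 1 lower in both, at -0.09 and -0.28. 0 passed limma's adjusted p. *Crot*, the peroxisomal carnitine octanoyltransferase, chosen after its values were seen, reached -0.84 in array 1 and 0.02 in array 2. The brighter *Slc22a5* probe set, at -0.16 and 0.10, lay near the medians of this list. Its other probe set, at 0.10 and 0.16, lay above the control in array 1, unlike all 7 genes of the list.

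**Figure D4:**
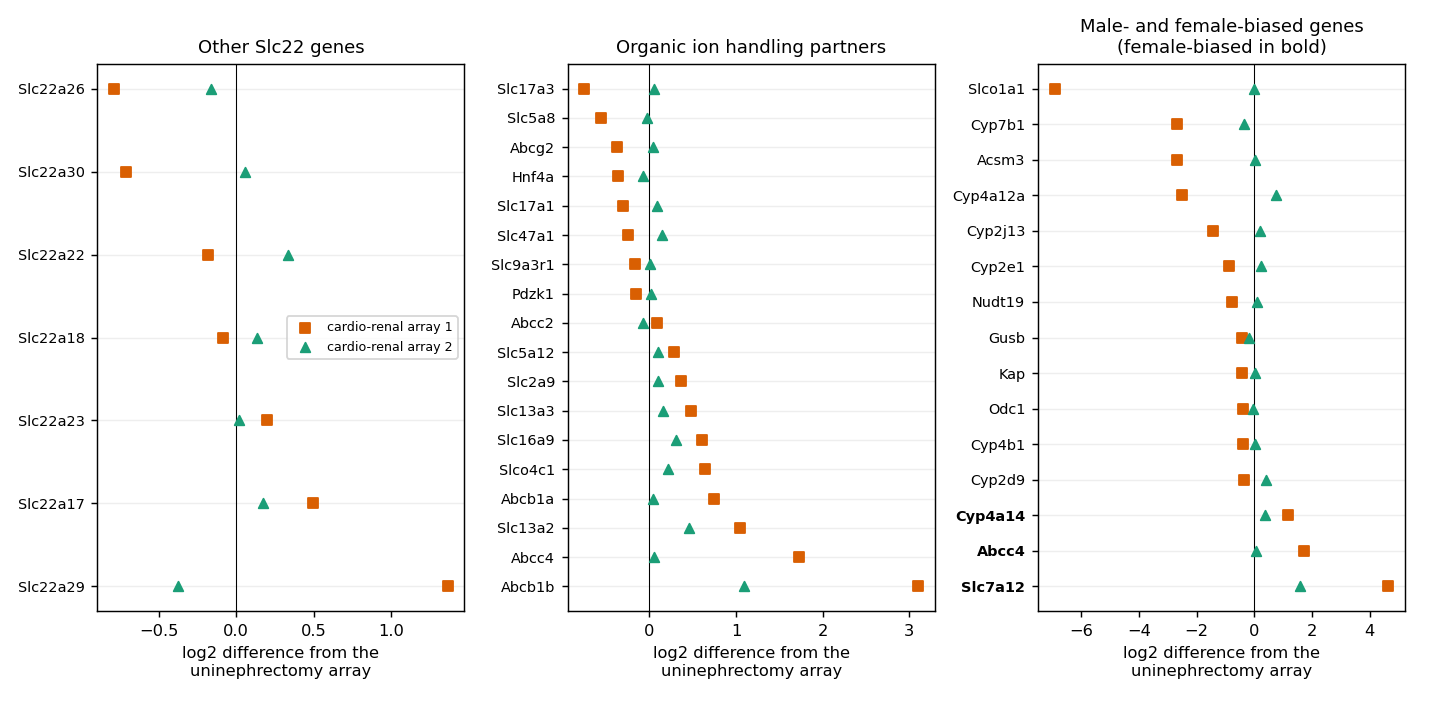
Log2 difference of cardio-renal array 1 (squares) and array 2 (triangles) from the uninephrectomy array (x axes) for the kept genes of 3 sets: other Slc22 genes, organic ion handling partners, and male- and female-biased kidney genes (female-biased in bold). Array 2 stays between -0.38 and 0.76 except for *Abcb1b* (1.09) and *Slc7a12* (1.58), while array 1 ranges from -6.92 for *Slco1a1* to 4.64 for *Slc7a12*.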

How the data were processed

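Kidney RNA of 3 samples was hybridised to single-colour Affymetrix arrays after 3' in vitro transcription labelling of 250 ng of total RNA, per the labels' protocols. The deposited intensities are MAS5 signals, per the submitters' processing notes, with a 2% trimmed mean of 500 on every array; no detection calls were used, and the number of arrays limits the precision. A 3' kit does not separate isoforms that share their end.

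Symbols came from the platform annotation, updated through Entrez IDs to RefSeq GRCm38.p6 (34945 probe sets with 1 symbol, 932 with several, 9160 unnamed here, 64 controls left out). Log2(signal + 28.8), the offset being the median 25th percentile, entered limma 3.58.1 under R 4.3.3 (trend, 1 residual degree of freedom, two-sided) over the 22519 probe sets whose mean reached 7.01, the median; p-values were Benjamini-Hochberg adjusted at 0.05. The fit assumes that the lone control varies like the cardio-renal pair. It was tested on simulated data. Offsets, filters, scaling, the choice of probe sets and the prior were varied, and each cardio-renal array was left out. The rule for named genes took all members, up to 3 genes per list with the largest mean difference of the same sign in both arrays, and 3 nearest genes. Members and lists were chosen with earlier results of these data known.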

Additional observations from a re-analysis of the deposited data

How the results depend on the processing

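No paired analysis was possible because replicate numbers were given in accession order and the control is a single sample. No member probe set passed limma's adjusted p under any of the 10 other settings with a test, while 9 of all probe sets did with 75th percentile scaling and 3 without shared-sequence probe sets (suffixes _s_at, _x_at and _a_at). 3 genes changed sign with the mean of a gene's probe sets, *Slc22a5* (0.049), *Slc22a6* (0.104) and *Slc22a12* (0.028), and *Slc22a12* also without shared-sequence probe sets (0.136), because another probe set then stood for it. The genes below the control in both arrays numbered 1 without shared-sequence probe sets, since *Slc22a7* has no other. Genes above it in both numbered 3 with 75th percentile scaling and with the mean of a gene's probe sets, as *Slc22a8* joined. With 1 cardio-renal array left out, the genes above the control numbered 3 to 6, those below 3 to 6, and the member probe sets at least 2-fold apart 0 to 2; such fits leave no residual degree of freedom and have no test. Of 149 values without a left-out array, 144 were counted as kept. The others were the 4 sign changes of single genes given above and 1 count, that of genes below the control without shared-sequence probe sets. Class medians that changed sign by less than the spread between arrays, and the counts of 3 genes above the control, were among the 144. No detection calls were used, and the single control array limits every value.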
